A study of Homo sapiens with 2 samples.

Results

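The replication-dependent histone genes lie in 4 clusters of the human genome, which the gene symbols number HIST1 to HIST4, and encode the linker histone H1 and the core histones H2A, H2B, H3 and H4. They were taken here as all rows of the deposited gene tables whose symbol begins with HIST1H, HIST2H, HIST3H or HIST4H and whose value was above 0 in either sample. Of 25277 rows in each table, 73 carried such a symbol, and 62 of them were members by this rule. The other 11 were listed at 0 in both samples and were HIST1H1T, HIST1H2AA, HIST1H2BA, HIST1H3C, HIST1H3F, HIST1H3G, HIST1H3I, HIST1H3J, HIST1H4F, HIST1H4G and HIST1H4L. The members comprised 5 H1, 17 H2A, 19 H2B, 9 H3 and 12 H4 rows, of which 45 carry a HIST1 symbol and lie on chromosome 6, 13 carry a HIST2 symbol and 3 a HIST3 symbol and lie on chromosome 1, and 1 carries a HIST4 symbol. The cluster was taken from the symbol, and HIST2H2BA (chr1:120906034-120914842) lies far from the other HIST2 rows.

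H2A, H2B, H3 and H4 form the protein core around which DNA is wound, and H1 binds the DNA between these cores. The clustered genes have no introns in their coding sequence and are transcribed mainly while DNA is replicated. Their mRNAs end in a short stem-loop that is bound by the stem-loop binding protein SLBP instead of in a poly(A) tail, although some of these genes can also give longer transcripts that are polyadenylated. Many H2A and H2B genes lie head to head and are transcribed in opposite directions from a shared stretch of DNA.

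RNA was sequenced from WT cells and from PERK-KO cells of HEK293, a line derived from human embryonic kidney. PERK, encoded by EIF2AK3, is a kinase of the endoplasmic reticulum that senses unfolded proteins, and the gene was disrupted with CRISPR/Cas9 in cells grown from single cells, so that a KO line is 1 clone. Both lines were kept for 12 h in OXPHOS medium, which holds 10 mM galactose and 1 mM pyruvate in place of glucose, before RNA with poly(A) tails was selected. There was 1 sample per genotype, so that no difference could be tested against the spread between replicates. A difference between the genotypes cannot be told apart from a difference between the cultures or clones.

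Expression was given as FPKM, the fragment number scaled by transcript length and by the depth of the library, with a lower and an upper confidence limit. The limits, shown in parentheses, cover the counting error of 1 library only. The total number of reads was not in the files. The EIF2AK3 mRNA was at 5.61 FPKM (5.11 to 6.12) in WT cells against 3.89 FPKM (3.44 to 4.34) in PERK-KO cells. Of 6 markers of HEK293 cells, VIM, NEFL and LIN28B were above 4 FPKM in both samples and PAX2 was below 1 in both, whereas IRS4 was at 0.121 FPKM in WT cells against 27.1 FPKM in PERK-KO cells and NEFM was at 0.662 and 5.21 FPKM. Among 5 markers of other cell types, ALB, HBB and COL1A2 were listed at 0 in both samples, PTPRC was at 0.108 and 0.180 FPKM, and COL1A1 was at 4.97 and 4.62 FPKM. Whether these differences between the samples bear on the histone values was not tested.

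The mRNA ends were examined first, because the RNA had been selected by its poly(A) tail. A canonical GENCODE transcript on GRCh37 was found for 57 of the 62 members, and 55 of those had a coding sequence. All 55 held a stem-loop of 16 bases within 100 bases after the stop codon, at a distance of 22 to 67 bases (median, 35 bases). Among 19734 protein-coding transcripts, 67 (0.340%) held the same pattern, and 0 of these were genes not named as histones. The stem-loops of the genes on which the results turn are shown 5′ to 3′ on the strand of the gene, with the stem-loop in capitals and 5 flanking bases on each side in lower case.
HIST1H2BK (chr6:27114140-27114165, minus strand): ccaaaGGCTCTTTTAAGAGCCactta
HIST1H1C (chr6:26055967-26055992, minus strand): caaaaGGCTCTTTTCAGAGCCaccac
HIST3H2A (chr1:228645065-228645090, minus strand): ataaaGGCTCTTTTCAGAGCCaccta
HIST2H2AA3 (chr1:149823136-149823161, plus strand): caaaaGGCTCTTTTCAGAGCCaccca
HIST2H4A (chr1:149832330-149832355, minus strand): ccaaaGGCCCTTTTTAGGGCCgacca
HIST1H4C (chr6:26104540-26104565, plus strand): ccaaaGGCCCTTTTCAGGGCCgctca
HIST1H3D (chr6:26197012-26197037, minus strand): ccaaaGGCTCTTTTCAGAGCCaacca
HIST1H3E (chr6:26225819-26225844, plus strand): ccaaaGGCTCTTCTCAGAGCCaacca

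These elements came in 9 versions. The version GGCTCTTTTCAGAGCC was present in 32 members of H1, H2A, H2B and H3, and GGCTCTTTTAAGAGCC was present in 7. The H4 genes held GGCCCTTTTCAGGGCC in 7 members or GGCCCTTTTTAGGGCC in 4, and neither was found in a member of another histone type. The loci in the deposited tables ended within 50 bases of the stem-loop for 50 members and ran further for 5.

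The hexamer AATAAA, the usual signal for polyadenylation, was found in the last 40 bases of the deposited locus for 4 members, whereas 62.4% of all protein-coding transcripts held it in their last 40 bases. These members were HIST1H2BK, HIST1H2BD, HIST2H2BE and HIST1H4J, and in HIST1H4J the hexamer preceded the stem-loop. In 3 members, HIST1H1C, HIST2H2AA3 and HIST1H2BD, the hexamer began 12 or 13 bases after the stem-loop, and the next closest was 102 bases away. These sites are shown with the hexamer in capitals, because the RNA had been selected by its poly(A) tail. The genes ranged in level from HIST1H2BK, the highest member, to HIST2H2BE, at 2.54 FPKM in WT cells.
HIST1H2BK, end of the locus (chr6:27106085-27106104, minus strand): gtaccttAATAAAtttgtat
HIST1H2BD, end of the locus (chr6:26171546-26171565, plus strand): tataattAATAAAatctgcg
HIST2H2BE, end of the locus (chr1:149856020-149856039, minus strand): tgttattAATAAAgttacca
HIST1H1C, after the stem-loop (chr6:26055947-26055966, minus strand): tgatctcAATAAAagagctg
HIST2H2AA3, after the stem-loop (chr1:149823163-149823182, plus strand): gttttcaAATAAAagagttg
HIST1H2BD, after the stem-loop (chr6:26158836-26158855, plus strand): tgttttcAATAAAtgagttg

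A match is a description of the letters and not of a used site. AATAAA was found within 1000 bases after the stem-loop in 27 of the 55 members that held one. HIST1H2BK and HIST3H2A, the highest and the third highest member, were not among them.

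The histone mRNAs were unevenly expressed. Of the 62 members, 54 were above 0 in both samples, 3 were listed at 0 in WT cells only and 5 in PERK-KO cells only. The filter, 1 FPKM or more in either library, was passed by 45 members. The 17 others were below 0.958 FPKM in both samples, and the lowest of them, HIST1H2BH, was at 0 FPKM in WT cells against 0.0846 FPKM in PERK-KO cells. HIST1H2BK and HIST1H1C alone made up 36.8% of the summed histone FPKM in WT cells against 29.2% in PERK-KO cells.

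The summed FPKM of the 62 members was 453 ± 16.7 in WT cells against 326 ± 15.5 in PERK-KO cells (counting error as half-width of the confidence interval), which gave a ratio of 0.719. Among the 45 members that passed the filter, 15 (33.3%) had a PERK-KO value lower by over 1.5-fold and 10 (22.2%) had one higher by over 1.5-fold. Of all 14594 genes that passed the same filter, 7.54% were lower and 10.1% were higher beyond this fold. Both shares were thus above those of all genes. Of the 15 lower members, 6 passed the filter through WT cells only, and of the 10 higher members, 2 passed through PERK-KO cells only, so that the filter itself favoured their direction. Of the 45 members, 7 (15.6%) were lower with confidence intervals that also lay apart and 0 were higher in this way, whereas 5.39% and 7.9% of all genes were. Among the 7, HIST1H4C and HIST1H3D passed the filter through WT cells only, so that it favoured their direction. HIST2H2AA3 and HIST2H2AA4, also among them, are copies with the same values. The median log2 difference of the histone members was -0.03, and that of all genes was 0.04.

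**Figure D1:**
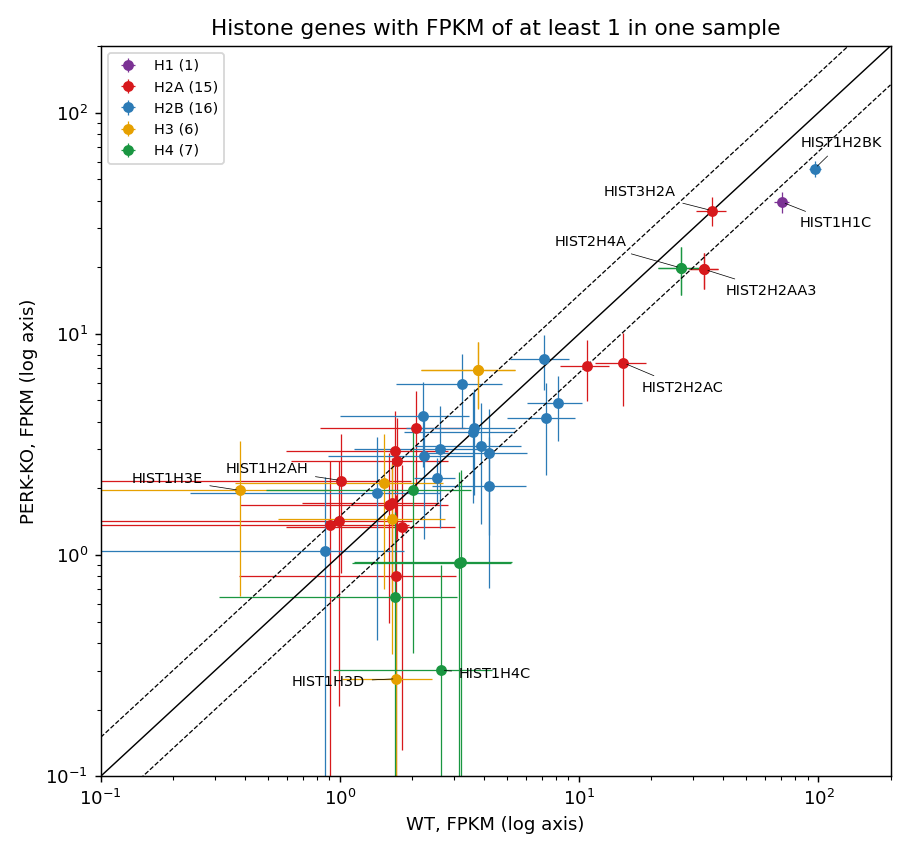
FPKM of the 45 histone members that passed the filter in WT cells (x axis) and PERK-KO cells (y axis), both on log axes, coloured by histone type. Bars are the deposited confidence limits, cut off at the axis where they reach 0, the solid line marks equal values and the dashed lines mark 1.5-fold. The highest members lie on or below the solid line, HIST3H2A lies on it at 35.9 and 36.0 FPKM, and the members at low values scatter to both sides with wide bars.

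The members were also divided by level, and the difference between the groups was not tested. The 14 members with a mean of at least 5 FPKM included 8 that were lower and 2 that were higher, with a median log2 difference of -0.67. The 31 members below that mean that passed the filter included 7 lower and 8 higher, with a median of 0.07. Of all genes that passed the filter, 7.54% were lower and 10.1% were higher, and their shares at each level were not taken. In the first group the 2 higher rows were both of HIST2H3C and had the same values. Its lower rows included the copies HIST2H2AA3 and HIST2H2AA4, also with the same values. The summed FPKM of the first group was 379 in WT cells against 255 in PERK-KO cells, whereas that of all 48 members below a mean of 5 was 74.0 and 70.7.

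Histone loci are short, and short genes as a whole differed between these libraries. Of the members, 56 spanned 1000 bases or less. Among the 111 other genes that spanned 300 to 1000 bases and passed the filter, 37.8% were lower and 7.21% were higher. Their median log2 difference was -0.42, and the ratio of their summed FPKM was 0.737. Among 388 other genes that spanned over 1000 to 2000 bases, 27.8% were lower and 9.28% were higher, and the median was -0.34. Among 13696 genes with longer loci, 5.97% were lower, 9.21% were higher, the median was 0.05 and the ratio of the sums was 0.863. By the fold alone, the share of lower histone genes, 33.3%, was thus close to that of other short genes and far above that of long genes. Their share of higher genes, 22.2%, was above both. The groups were not alike in depth or in the effect of the filter. Of the lower rows, 6 of 15 histone members and 6 of 42 other short genes passed through WT cells only. The estimated fragments in WT cells were 3627 over 62 histone rows against 69205 over the 111 other short genes. Shares at equal depth were not taken. For the members spanning 1000 bases or less the shares were 30.8% and 20.5%. With intervals that also lay apart, 15.6% of all histone members were lower, against 29.7% of other short genes and 4.75% of genes over 2000 bases. By this call 0%, 1.80% and 8.20% were higher.

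**Figure D2:**
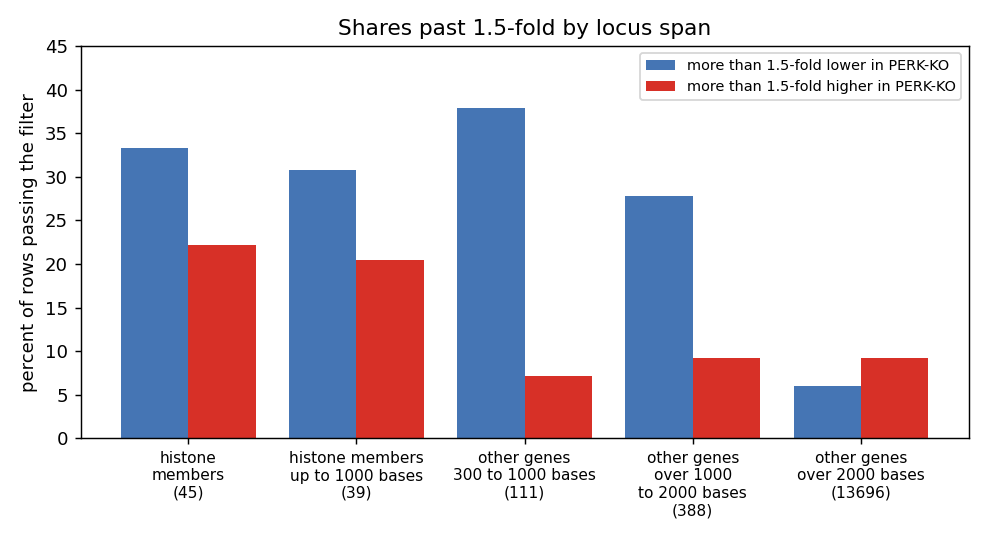
Percent of rows that were more than 1.5-fold lower (blue) or higher (red) in PERK-KO cells, for the histone members, for those spanning up to 1000 bases, and for other genes by the span of the locus, with the number of rows in parentheses. The lower share is 33.3% for the histone members, 37.8% for other genes of 300 to 1000 bases and 5.97% for genes over 2000 bases.

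The number of fragments behind a value was estimated from the width of its confidence interval. By this estimate, 31 members had 10 fragments or more in either library, 12 had 50 or more and 8 had 100 or more. In WT cells 1 fragment was worth a median of 0.290 FPKM in an H4 gene and 0.0863 FPKM in an H1 gene, whereas it was worth 0.0444 FPKM over all rows spanning 1000 to 3000 bases. In PERK-KO cells the corresponding values were 0.324, 0.0973 and 0.0503 FPKM. A value near 1 FPKM in a core histone gene thus rested on a few fragments.

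H1 histones bind the linker DNA and compact chromatin. HIST1H1C, which encodes H1.2, was at 70.3 FPKM (65.1 to 75.4) in WT cells against 39.4 FPKM (35.3 to 43.5) in PERK-KO cells, a log2 difference of -0.83 with intervals that lay apart. The other 4 H1 members, HIST1H1A, HIST1H1B, HIST1H1D and HIST1H1E, were below 1 FPKM in both samples. HIST1H1E was the highest of them, at 0.935 FPKM in WT cells against 0.194 FPKM in PERK-KO cells. H1 was therefore represented by 1 gene, and the H1 sum, 72.0 FPKM in WT cells against 40.3 FPKM in PERK-KO cells, followed it.

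H2B pairs with H2A as a dimer in the nucleosome. HIST1H2BK was the highest histone gene in both samples, at 96.5 FPKM (91.0 to 102) in WT cells against 55.8 FPKM (51.3 to 60.3) in PERK-KO cells, a log2 difference of -0.79. Its locus spans 8566 bases (chr6:27106072-27114637), runs 8073 bases past the stem-loop and also contains HIST1H4I, which was at 0.0983 FPKM in WT cells against 0.337 FPKM in PERK-KO cells. HIST1H2BD, the other H2B gene of HIST1 with a long locus, was at 8.16 FPKM (6.04 to 10.3) in WT cells against 4.86 FPKM (3.28 to 6.44) in PERK-KO cells. Its intervals overlapped. The next in this cluster was HIST1H2BJ, at 7.29 FPKM (5.01 to 9.56) in WT cells against 4.15 FPKM (2.29 to 6.01) in PERK-KO cells, again with overlapping intervals. HIST1H2BO was at 4.21 FPKM (2.42 to 6.01) and 2.06 FPKM (0.706 to 3.41). These 4 genes were the ones that were lower beyond 1.5-fold among 11 H2B members of HIST1 that passed the filter, and 0 were higher. This share was 36.4%, beside 7.54% of all genes. It was 37.8% of other genes spanning 300 to 1000 bases and 5.97% of other genes over 2000 bases. The lower genes belong to both spans of the locus, because HIST1H2BK and HIST1H2BD have loci over 2000 bases and HIST1H2BJ and HIST1H2BO have short ones. The span of a locus is not the transcript length by which FPKM is scaled. In WT cells 1 fragment was worth 0.0781 FPKM in HIST1H2BK and 0.138 FPKM in HIST1H2BD. Both were above the 0.0444 FPKM of rows spanning 1000 to 3000 bases, so that the 2 genes were not scaled as long ones. The remaining 7 lay within 1.5-fold and included HIST1H2BE, at 3.60 FPKM in both samples, and HIST1H2BN, at 3.65 and 3.76 FPKM.

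Of 4 H2B members named for HIST2, 0 were lower and 2 were higher beyond 1.5-fold, beside 7.54% and 10.1% of all genes. HIST2H2BF was at 3.22 FPKM (1.71 to 4.74) in WT cells against 5.93 FPKM (3.77 to 8.10) in PERK-KO cells, and HIST2H2BA, which is annotated as a noncoding RNA with 5 exons, was at 2.23 FPKM (0.997 to 3.47) and 4.27 FPKM (2.49 to 6.04). In both the intervals overlapped. HIST2H2BC was at 7.10 FPKM in WT cells against 7.73 FPKM in PERK-KO cells. HIST2H2BE, with about 103 fragments in WT cells over its long locus, was at 2.54 FPKM (2.04 to 3.04) and 2.24 FPKM (1.73 to 2.75). The sum of the 4 was 15.1 ± 2.81 FPKM in WT cells against 20.2 ± 3.56 FPKM in PERK-KO cells, and without HIST2H2BA, which lies outside the cluster, it was 12.9 and 15.9 FPKM. The H2B sum of HIST1 was 137 ± 7.82 and 87.9 ± 7.01 FPKM. The difference between the clusters was not tested.

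**Figure D3:**
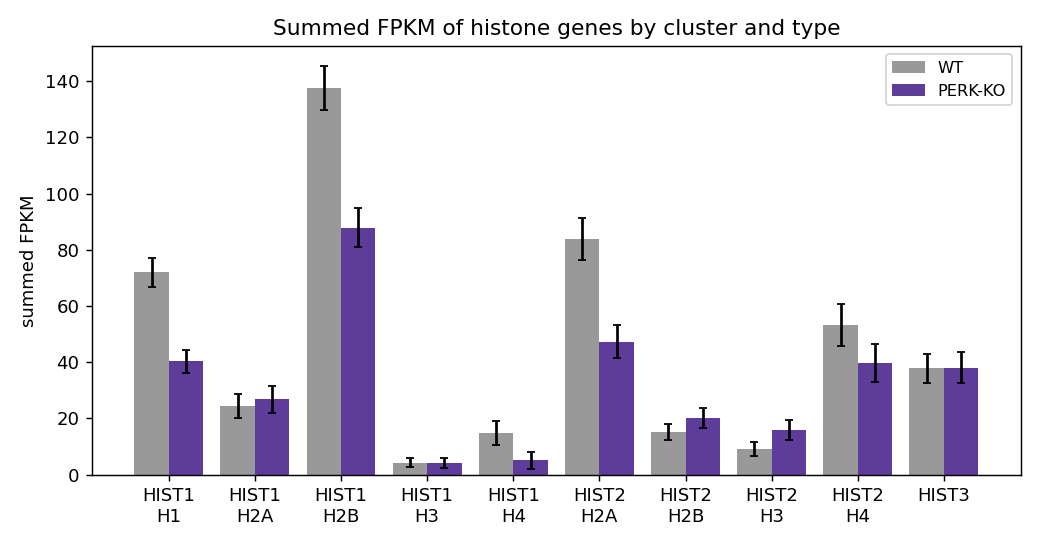
Summed FPKM of the members by cluster and histone type in WT cells (grey) and PERK-KO cells (purple), with bars showing the counting error as the half-width of the confidence interval, 1 sample per genotype. HIST1 H2B is the tallest pair, at 137 and 87.9 FPKM, HIST2 H2A stands at 83.8 and 47.3 FPKM, and HIST3 is level at 37.8 and 38.0 FPKM.

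In HIST2, all 4 H2A members were lower beyond 1.5-fold in PERK-KO cells, and their sum was 83.8 ± 7.50 FPKM in WT cells against 47.3 ± 5.92 FPKM in PERK-KO cells. HIST2H2AA3 and HIST2H2AA4 were each at 33.4 FPKM (28.8 to 37.9) in WT cells against 19.5 FPKM (15.9 to 23.2) in PERK-KO cells. The loci of this pair span 534 bases each with 0 differences, so that their values cannot be told apart. HIST2H2AC was at 15.3 FPKM (11.7 to 18.9) in WT cells against 7.39 FPKM (4.71 to 10.1) in PERK-KO cells, with a log2 difference of -1.05 and intervals that lay apart. HIST2H2AB was at 1.71 and 0.806 FPKM, about 7 and 2 fragments, and its PERK-KO value was 0.470 of the WT value (95% exact interval, 0.0383 to 1.98). The intervals lay apart for the first 3 genes and overlapped for HIST2H2AB. HIST2H2AB passed the filter through WT cells only, so that the filter favoured its direction. Apart from it, the rows are HIST2H2AC and 1 pair of copies. Of all genes that passed the filter 7.54% were lower, and of other genes spanning 300 to 1000 bases 37.8% were.

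In HIST1, 1 of 10 H2A members that passed the filter was lower and 5 were higher, and 8 of the 10 were above their WT value. The median log2 difference of the 10 was 0.57. HIST1H2AJ, which was among the 5, and HIST1H2AI, which was within 1.5-fold, passed the filter through PERK-KO cells only. The filter thus favoured their direction in these counts and in the median. Among all genes that passed the filter, 7.54% were lower and 10.1% were higher beyond 1.5-fold. The lower gene was HIST1H2AC, the highest of the 10, at 10.8 FPKM (8.28 to 13.3) in WT cells against 7.14 FPKM (4.95 to 9.33) in PERK-KO cells. The higher genes were all below 4 FPKM. HIST1H2AB was at 2.07 FPKM (0.824 to 3.32) and 3.74 FPKM (1.94 to 5.54), and HIST1H2AG was at 1.71 FPKM (0.595 to 2.82) and 2.94 FPKM (1.41 to 4.47). HIST1H2AH had the largest difference of them, at 1.01 FPKM (0.0424 to 1.98) and 2.17 FPKM (0.825 to 3.52), a log2 difference of 1.10. HIST1H2AM, at 1.73 and 2.67 FPKM, and HIST1H2AJ, at 0.907 and 1.37 FPKM, were just past the fold. The intervals of all 5 higher genes overlapped between the samples, and the sum of the H2A genes of HIST1, 24.5 ± 4.18 FPKM in WT cells against 26.8 ± 4.72 FPKM in PERK-KO cells, differed by less than its counting error. Whether the H2A genes of the clusters differed from each other was not tested. The only H2A gene of HIST1 with a mean above 5 FPKM, HIST1H2AC, was lower with overlapping intervals. The H2A genes of HIST2 at this level were lower with intervals that lay apart, and HIST3H2A was level, at 35.9 and 36.0 FPKM.

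HIST3 holds a single expressed H2A gene and its H2B neighbour. HIST3H2A was at 35.9 FPKM (30.9 to 40.9) in WT cells against 36.0 FPKM (30.7 to 41.4) in PERK-KO cells, with about 208 and 180 fragments, and was the only one of the 8 highest members whose values were equal within 1%. HIST3H2BB was at 1.42 FPKM (0.235 to 2.61) and 1.91 FPKM (0.414 to 3.41). HIST3H3 was below 1 FPKM in both samples, at 0.444 and 0.101 FPKM.

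H3 carries most of the tail modifications by which chromatin is marked, and its clustered genes were low in this RNA. The H3 sum was 13.9 ± 3.07 FPKM in WT cells against 20.1 ± 3.99 FPKM in PERK-KO cells. HIST2H3C, listed 2 times at identical loci of 507 bases, was the highest at each locus, with 3.79 FPKM (2.19 to 5.40) in WT cells against 6.87 FPKM in PERK-KO cells (4.59 to 9.15 at the first locus). HIST2H3D was at 1.52 and 2.11 FPKM. The intervals of HIST2H3C overlapped between the samples at each locus. Of 6 H3 members that passed the filter, 3 were higher and 1 was lower beyond 1.5-fold. Of all genes that passed it, 10.1% were higher and 7.54% were lower. Of other genes spanning 300 to 1000 bases, 7.21% were higher and 37.8% were lower. The pair of HIST2H3C rows makes up 2 of the 3 higher H3 members, and nothing is read from a count this small.

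The other one was HIST1H3E, at 0.381 FPKM (0 to 0.922) in WT cells against 1.96 FPKM (0.653 to 3.27) in PERK-KO cells, from about 2 and 9 fragments. Its PERK-KO value was 5.14 times the WT value (95% exact interval, 1.06 to 48.7), although the deposited limits overlapped. HIST1H3E passed the filter through PERK-KO cells only. HIST1H3D was in the opposite direction, at 1.72 FPKM (1.02 to 2.43) and 0.276 FPKM (0 to 0.637), from about 24 and 2 fragments, with a ratio of 0.160 (0.0156 to 0.547). HIST1H3D passed the filter through WT cells only. In both genes the filter thus favoured the direction, and nothing is read from their ratio intervals. The annotated locus of HIST1H3D spans 2510 bases and overlaps that of HIST1H2AD, which was listed at 7.59e-06 FPKM in WT cells against 0.336 FPKM in PERK-KO cells. Fragments of overlapping genes can be divided between them by the software, and this division was not tested. HIST1H3H was within 1.5-fold, at 1.65 and 1.46 FPKM.

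H4 forms a tetramer with H3 in the nucleosome core, and all H4 genes encode nearly the same protein. HIST2H4A and HIST2H4B, identical over 396 bases, were each at 26.6 FPKM (21.4 to 31.8) in WT cells against 19.8 FPKM (15.0 to 24.7) in PERK-KO cells, a log2 difference of -0.42 with overlapping intervals. The H4 genes of HIST1 were far lower. HIST1H4C was at 2.64 FPKM (0.934 to 4.34) in WT cells against 0.301 FPKM (0 to 0.903) in PERK-KO cells, from about 10 and 1 fragments. This was the largest fold difference among the members that passed, with a ratio of 0.114 (95% exact interval, 0.00252 to 0.770). HIST1H4J and HIST1H4K, which differ at 4 of 354 aligned bases, were at 3.16 and 3.20 FPKM in WT cells against 0.916 and 0.928 FPKM in PERK-KO cells, and HIST1H4E was at 1.70 and 0.647 FPKM. HIST1H4H alone lay within the fold, at 2.02 FPKM and 1.97 FPKM.

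Of 5 H4 members of HIST1 that passed the filter, 4 were lower in PERK-KO cells and 0 were higher. All 4 passed through WT cells only, so that the filter favoured this direction and nothing is read from the count. HIST1H4J and HIST1H4K share 91.2% and 91.8% of their stretches of 50 bases and had the same fold, and counted once they leave 3 lower of 4. The intervals of the lower genes overlapped except for HIST1H4C, and the ratio intervals of HIST1H4E, 0.0377 to 2.13, and of HIST1H4J, 0.0384 to 1.69, included equal values. Summed over the 9 H4 members of HIST1, about 49.0 fragments in WT cells stood against 13.1 in PERK-KO cells, and the summed FPKM was 14.9 ± 4.30 in WT cells against 5.10 ± 2.93 in PERK-KO cells. HIST1H4A, HIST1H4B and HIST1H4D, all below 1 FPKM in WT cells, were listed at 0 in PERK-KO cells. HIST1H4I was the exception among the low members, with values of 0.0983 and 0.337 FPKM.

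**Figure D4:**
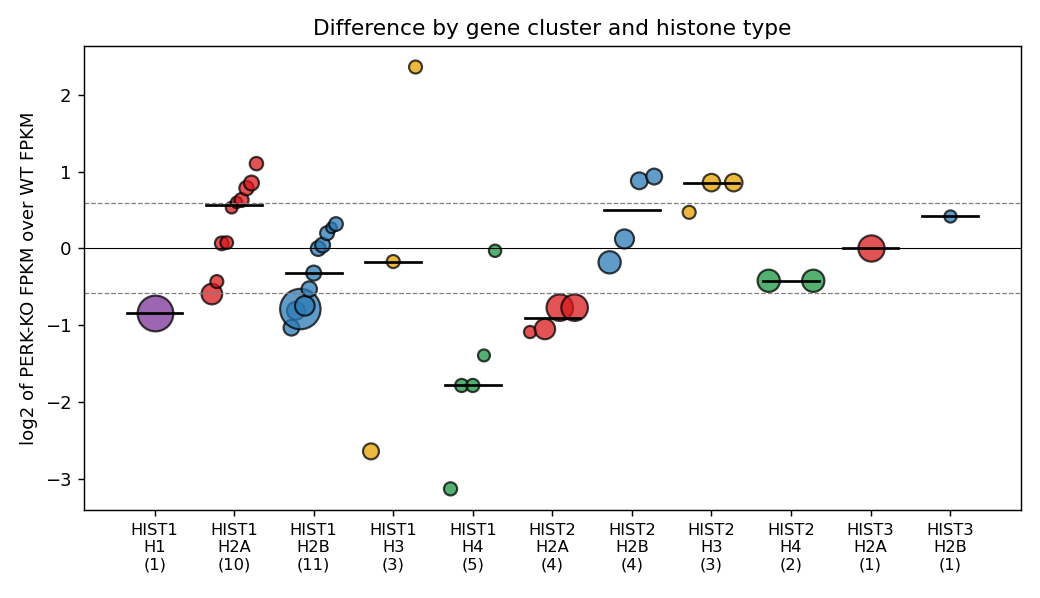
Log2 of the PERK-KO FPKM over the WT FPKM for the 45 members that passed the filter, by cluster and histone type, with the number of members in parentheses. The circle area grows with the larger of the estimated fragment numbers in WT and PERK-KO cells, and a black outline marks intervals that lay apart. The black bars mark medians and the dashed lines mark 1.5-fold. The HIST1 H2A median is 0.57, the HIST1 H2B median is -0.32 and the HIST1 H4 median is -1.78.

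By position, HIST1 falls into 3 blocks separated by more than 500 kb. In the first (chr6:25726291-26285727) 6 of 14 members that passed were lower and 2 were higher. The second (chr6:27100095-27115341), which holds HIST1H2BK, had 2 lower and 2 higher of 4, and the third (chr6:27775257-27861669) had 3 lower and 2 higher of 12. In the first block 3 of the lower members passed the filter through WT cells only, and in the third block 2 did. In each of these blocks 1 of the higher members passed through PERK-KO cells only. Of all genes that passed the filter, 7.54% were lower and 10.1% were higher. Of other genes spanning 300 to 1000 bases, 37.8% were lower and 7.21% were higher. The summed ratios of the 3 blocks were 0.641, 0.614 and 0.799, and the blocks were not compared by a test.

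The promoters differed by histone type. From 250 bases before to 50 bases after the start, on either strand, the octamer ATTTGCAT was found in 12 of 16 H2A and 12 of 16 H2B promoters and in 0 of 5 H1, 9 H3 and 11 H4 promoters, against 1.58% of all 19734 protein-coding promoters. The letters CCAAT were found in 86.0% of the 57 member promoters and 35.9% of all, although in 3 of 11 H4 promoters. TATAAA was found in 64.9% and 9.58%. H2A and H2B genes that lie head to head share much of the stretch searched, so that the same letters could be counted for both genes. Octamer, CCAAT and TATA elements are known binding sequences of general and histone gene transcription factors, and a match was not taken as a used site.

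An H2A and an H2B gene lay head to head, 223 to 322 bases apart on opposite strands, in 9 pairs of members. In 4 of the 9 pairs the H2A gene had a higher and the H2B gene a lower value in PERK-KO cells, in 2 both were lower, in 2 both were higher, and in 1 the H2A gene was lower and the H2B gene was higher. The stretch between the genes is shown 5′ to 3′ toward the H2B gene for the pair with the widest gap in log2 difference and for the pair of HIST3, with octamer, CCAAT and TATAAA letters of either strand in capitals.
HIST1H2AH and HIST1H2BK (GRCh37 chr6:27114638-27114860, minus strand): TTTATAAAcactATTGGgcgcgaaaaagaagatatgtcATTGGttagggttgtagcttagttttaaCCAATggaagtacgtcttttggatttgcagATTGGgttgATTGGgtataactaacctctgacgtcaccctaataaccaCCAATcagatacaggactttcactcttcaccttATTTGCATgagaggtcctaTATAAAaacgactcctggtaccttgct
HIST3H2A and HIST3H2BB (GRCh37 chr1:228645561-228645807, plus strand): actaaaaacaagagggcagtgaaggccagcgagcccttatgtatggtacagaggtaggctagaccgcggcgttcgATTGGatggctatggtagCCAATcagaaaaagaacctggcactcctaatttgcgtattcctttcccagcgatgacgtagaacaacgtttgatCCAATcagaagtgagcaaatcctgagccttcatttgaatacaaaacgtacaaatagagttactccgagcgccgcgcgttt

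HIST1H2BK was at 96.5 FPKM and its neighbour HIST1H2AH at 1.01 FPKM in WT cells, and their log2 differences were -0.79 and 1.10, which are 1.89 apart. The stretch between them holds an octamer, CCAAT letters in both directions and a TATAAA at each end. HIST1H2AM and HIST1H2BO were 1.66 apart, at 0.63 and -1.03, and HIST1H2AG and HIST1H2BJ were 1.60 apart, at 0.78 and -0.81. In HIST2H2AC and HIST2H2BE both values were lower, with -1.05 and -0.18. In HIST3 the stretch has no exact octamer or TATAAA, and the levels of the pair were 35.9 and 1.42 FPKM in WT cells. The intervals of the samples overlapped for most of these genes, and lay apart for HIST1H2BK and HIST2H2AC.

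Similar copies limit what can be said of single genes. Of 56 short members, 32 shared at least one stretch of 50 bases with another histone locus, and in 10 of them over 50% of such stretches were shared. HIST1H1C shared none. When rows with the same values were counted once, 14 of 42 members were lower, 9 were higher, and the summed ratio was 0.718.

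Genes that make and use histone mRNA were then compared with the histone genes. Of 24 genes for transcription and 3′ processing of histone mRNA, 0 were lower and 2 (8.33%) were higher beyond 1.5-fold, beside 7.54% and 10.1% of all genes, with a median log2 difference of 0.10. The share of higher genes was close to that of all genes. SLBP was at 108 FPKM (104 to 111) in WT cells against 90.0 FPKM (86.4 to 93.7) in PERK-KO cells. The higher genes were NPAT, a coactivator of histone gene transcription, at 3.27 FPKM (2.94 to 3.61) and 5.35 FPKM (4.89 to 5.82), and LSM11, a protein of the U7 particle that cuts the mRNA end, at 4.11 FPKM (3.52 to 4.71) and 7.31 FPKM (6.47 to 8.15). In both the intervals lay apart.

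Histone variants encoded outside the clusters have polyadenylated mRNAs and are made throughout the cell cycle. Of 17 listed, 12 passed the filter, and their median was -0.14. Of the 12, 0 were lower and 1 (8.33%) was higher, beside 7.54% and 10.1% of all genes. H2AFZ was at 762 and 650 FPKM, H1FX at 378 and 373 FPKM, and H2AFX, whose mRNA can also end in a stem-loop, at 367 and 350 FPKM. The higher gene was H1F0, a linker histone of cells that divide slowly, at 106 FPKM (103 to 109) in WT cells against 169 FPKM (164 to 173) in PERK-KO cells. The linker histone genes HIST1H1C and H1F0 thus differed in opposite directions, each with intervals that lay apart.

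Of 26 histone chaperones, which carry histones to DNA, 0 were lower and 1 (3.85%), CABIN1, was higher, at 8.42 and 15.2 FPKM. Their median was 0.10. Of 30 genes of S phase, 0 passed the fold in either direction, with a median of -0.03. PCNA, the sliding clamp of DNA polymerase, was at 315 and 223 FPKM, and MCM7 of the replicative helicase at 179 and 172 FPKM. Of 18 genes of G2 and M phase, 0 were lower and 1 (5.56%), CENPF, was higher, at 12.4 and 20.1 FPKM. Beyond the same fold, 7.54% of all genes were lower and 10.1% were higher, and nothing is read from counts in lists this small. The share of cells in S phase was not measured.

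Other RNAs made without a poly(A) tail, such as small nuclear, small nucleolar and vault RNAs, were found by name in 436 rows. Of 195 that passed the filter, 64 were lower and 89 were higher beyond 1.5-fold, but 74 of the 195 were listed at 0 in either sample and were past the fold for that reason. The median over the 121 rows above 0 in both samples was 0.19. The summed FPKM of the 436 rows was 31043 in WT cells against 41764 in PERK-KO cells. Intervals lay apart for 6 of the lower and 6 of the higher rows, 3.08% each, which was below the 5.39% and 7.9% of all genes. Whether the fraction of RNA without a poly(A) tail that was carried through the selection differed between the libraries was not tested.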

How the data were processed

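RNA of 1 WT and 1 PERK-KO HEK293 sample was sequenced after poly(A) selection with a kit for mRNA; strand marking was not given in the sources used here. The authors mapped reads to GRCh37/hg19 with TopHat2 2.0.13 and deposited FPKM per gene with confidence limits, computed with Cufflinks 2.2.1, per the submitters' processing notes. Because FPKM values are not counts and each genotype has 1 sample, no count model, test or p-value was used.

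From these values, log2 of PERK-KO over WT was taken without a pseudocount for rows with 1 FPKM or more in either library, and a row was called lower or higher beyond 1.5-fold. Half-widths of the limits were combined as root sums of squares, with identical copies treated as independent. The fragments behind a value were 4 times the square of the FPKM over the half-width. Within 1%, 25 of 45 WT values and 24 of 44 PERK-KO values with 0.9 to 50 fragments came out whole. Ratios that rest on 1 to 3 fragments have an exact (Clopper-Pearson) interval. Limits cover counting error only.

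Transcripts and sequences came from GENCODE 44 on GRCh37. The stem-loop, hexamer and promoter letters were searched exactly, and calculations were tested on simulated data. Python 3.11.15, pandas 2.3.3, numpy 2.4.6, scipy 1.17.1, pysam 0.24.0 and matplotlib 3.10.9 were used.

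The members, gene lists and tests were chosen with earlier results of these data known. By the rule for named genes, any member past the filter could be named, with the 8 highest and the 5 largest folds in each direction in full, and up to 4 genes of each other list by highest mean, plus SLBP, NPAT and EIF2AK3. H1F0, CABIN1, CENPF, LSM11, the markers beyond 4 and the members below the filter were named after their values were seen. Alternatives were other filters, pseudocounts, scalings, spans and folds.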

Additional observations from a re-analysis of the deposited data

How the results depend on the processing

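No paired analysis was possible because each genotype has 1 sample, and no sample could be left out for the same reason. The counts of 15 lower and 10 higher members became 8 and 3 at a minimum of 5 FPKM, 6 and 0 at 10 FPKM, 3 and 2 among loci over 1000 bases, 8 and 2 at 2-fold, and 7 and 0 where the intervals also had to lie apart. The median log2 difference of -0.03 became -0.59 at 5 FPKM, -0.77 at 10 FPKM and -0.46 among loci over 1000 bases. The summed ratio of 0.719 became 0.644 at 10 FPKM, 0.642 among loci over 1000 bases and, chosen after seeing the data, 0.806 without HIST1H2BK and HIST1H1C. All of these settings use fewer members or a stricter call. The other settings stayed within 1.5 times the counts and within the counting error, in 11 of 16 settings for each count, 11 of 14 for the median and 9 of 12 for the ratio. Of the settings, 3 in all were added after seeing the data, which counted copies once, asked for at least 10 fragments or left out HIST1H2BK and HIST1H1C. A pseudocount gives no summed ratio. Depth limited many values, as 31 members had under 10 fragments in both samples.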
